A study of Mus musculus with 6 samples.

Results

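The transcripts described here code for titin and for 9 proteins of the cardiac Z-disc and the desmin network around it: Ttn, Tcap, Actn2, Ldb3, Myoz2, Nebl, Synpo, Synpo2l, Flnc and Des. They were taken by symbol from a deposited table of read counts. All 10 were found among its 37620 genes, and all 10 passed a filter on low counts that left 14738 genes for testing. RNA came from the apex of hearts of C57/BL6J wild types, and all of these hearts had undergone 30 min of ischaemia and then 120 min of reperfusion. The dexmedetomidine group (3 libraries) first received the vehicle of yohimbine, an antagonist of alpha-2 adrenergic receptors. Dexmedetomidine, an agonist of those receptors used for sedation, followed 30 min later at 10 µg/kg, and surgery came 20 min after it. The vehicle group (3 libraries) was given the vehicles of both drugs separately before the same surgery, with no intervals stated. Each drug or vehicle was infused into a tail vein within 10 min. No sham-operated mice were analysed here. The labels give no age and no statement that each library came from its own animal. The p-values set the group difference against the spread among libraries, which may not be the spread among animals. The comparison is between reperfused hearts with and without dexmedetomidine beforehand.

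The Z-disc is the boundary between neighbouring sarcomeres, where actin filaments of opposite polarity are cross-linked and where the giant elastic protein titin is anchored by its end. Titin reaches from there to the middle of the sarcomere and acts as its molecular spring. Desmin filaments wrap the Z-discs and tie myofibrils to each other, to the cell membrane and to the nucleus, and proteins such as filamin C take part in the repair of overstretched or damaged sarcomeres. Genes for several of these proteins are mutated in inherited cardiomyopathies.

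Promoters are printed for the 4 members with 1 start site in RefSeq, out of 8 members whose promoters were searched. Tcap and Synpo were not among those searched. The 4 genes code for proteins of one structure and yet stood at different places in the comparison. Des and Actn2 were lower after dexmedetomidine with no overlap between groups, and Ttn and Myoz2 overlapped. Each printed promoter is the 250 bases before the start, 5′ to 3′ on the strand of the gene, in build GRCm38.p6. Capitals mark matches to an E-box (CANNTG), the site bound by basic helix-loop-helix factors. The stretches are chr1:75360042-75360291 (plus strand) for Des, chr13:12340733-12340982 (minus strand) for Actn2, chr2:76982548-76982797 (minus strand) for Ttn and chr3:123034988-123035237 (minus strand) for Myoz2.
Des: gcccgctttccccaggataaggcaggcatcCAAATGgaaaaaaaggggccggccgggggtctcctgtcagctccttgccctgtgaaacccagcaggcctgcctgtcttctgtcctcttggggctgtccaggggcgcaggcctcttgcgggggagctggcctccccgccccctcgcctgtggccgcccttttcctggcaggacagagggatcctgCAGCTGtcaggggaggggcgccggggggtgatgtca
Actn2: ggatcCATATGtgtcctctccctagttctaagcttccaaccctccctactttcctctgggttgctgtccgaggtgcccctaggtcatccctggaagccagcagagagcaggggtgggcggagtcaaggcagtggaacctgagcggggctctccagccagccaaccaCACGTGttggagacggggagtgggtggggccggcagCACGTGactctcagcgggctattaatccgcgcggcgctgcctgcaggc
Ttn: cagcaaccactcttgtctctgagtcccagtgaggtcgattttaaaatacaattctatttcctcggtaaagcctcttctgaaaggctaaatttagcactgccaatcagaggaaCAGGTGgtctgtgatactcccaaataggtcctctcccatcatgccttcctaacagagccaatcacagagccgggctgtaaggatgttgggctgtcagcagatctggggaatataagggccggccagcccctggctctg
Myoz2: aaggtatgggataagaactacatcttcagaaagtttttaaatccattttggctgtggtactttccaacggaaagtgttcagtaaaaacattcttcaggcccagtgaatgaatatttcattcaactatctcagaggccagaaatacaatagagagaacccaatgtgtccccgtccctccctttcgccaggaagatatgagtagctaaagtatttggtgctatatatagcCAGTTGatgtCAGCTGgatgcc

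All 4 stretches held at least 1 E-box on either strand, with 2 for Des, 3 for Actn2, 1 for Ttn and 2 for Myoz2, and so did 66.2% of 32536 promoters of the same length. None of the 4 held the MEF2 core TAAAAATA, a CArG box or the TEAD site CATTCC, which 2.43%, 1.48% and 12.6% of promoters hold. For MEF2 only the exact letters TAAAAATA were searched, on either strand, and variants of that site were not counted. Among the other members searched, the listed promoters of Ldb3, which overlap, share 1 CArG box, and 1 of the 4 Nebl promoters holds another. The TEAD site lies in 1 other Nebl promoter and in 1 of the 2 Flnc promoters, and the MEF2 core in 1 of the 2 Synpo2l promoters. GC content of the stretches was 67.2% for Des, 63.2% for Actn2, 50% for Ttn and 40.8% for Myoz2. An E-box was thus present both in the lower pair and in the overlapping pair. A match is a description of these letters and shows no binding.

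Gene counts summed to between 42.7 and 48.6 M in the dexmedetomidine libraries and between 50.3 and 56.6 M in the vehicle libraries. The 13 protein-coding genes of the mitochondrial genome held 26.0% to 37.1% of them after dexmedetomidine and 21.6% to 24.7% after vehicle. Dexmedetomidine replicate 3 stood apart in the atrial transcripts Myl7, Sln and Myl4, at 11.9, 11.1 and 25.2 CPM. The other 5 libraries held at most 0.019, 0.017 and 1.91 CPM of them. Nppa, also on the atrial list, did not follow. It was at 11.7 CPM in dexmedetomidine replicate 3, inside the 6.75 to 30.1 CPM of the other 5. Bmp10 was at 0 in each library. Over all genes, log2 fold changes followed GC content, with a median of 0.47 in the lowest of 5 equal bins of GC content and of -0.30 in the highest. Levels below are CPM (counts relative to the library total, scaled by the TMM method), fold changes are log2 values of dexmedetomidine over vehicle with a standard error (SE), and p-values are from edgeR's quasi-likelihood test, adjusted over all genes tested with a threshold of 0.05.

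No member passed this threshold, and neither did any other gene (0%). After dexmedetomidine, 8 of the 10 members had lower fitted levels and 2 had higher ones. The median log2 fold change was -0.47, against 0.00321 over all tested genes, of which 49.7% were lower. An unadjusted edgeR p under 0.05 was reached by 5 members that were lower (Tcap, Des, Actn2, Synpo and Synpo2l), where 9.03% of all genes were lower at that level. It was reached by 1 member that was higher (Nebl), where 12.5% of all genes were higher (21.5% in either direction). DESeq2 called these same 6 genes at an adjusted p of 0.05, where it called 2.66% of all genes lower and 5.97% higher. Limma-voom with quality weights called the same 6, where it called 5.31% lower and 8.98% higher. Without vehicle replicate 3, edgeR called 6 members, with Flnc in place of Tcap, among 2.19% of genes lower and 6.13% higher. For 6 members the 3 dexmedetomidine values lay wholly below the 3 vehicle values, as for 12.0% of all genes. For Nebl they lay wholly above, as for 15.6%. That makes 7 of 10 members against 27.6% of all genes in either direction. The members, and the partner lists below, were chosen with earlier results of these data known. Counts set beside these shares are therefore descriptions and no independent test.

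**Figure D1:**
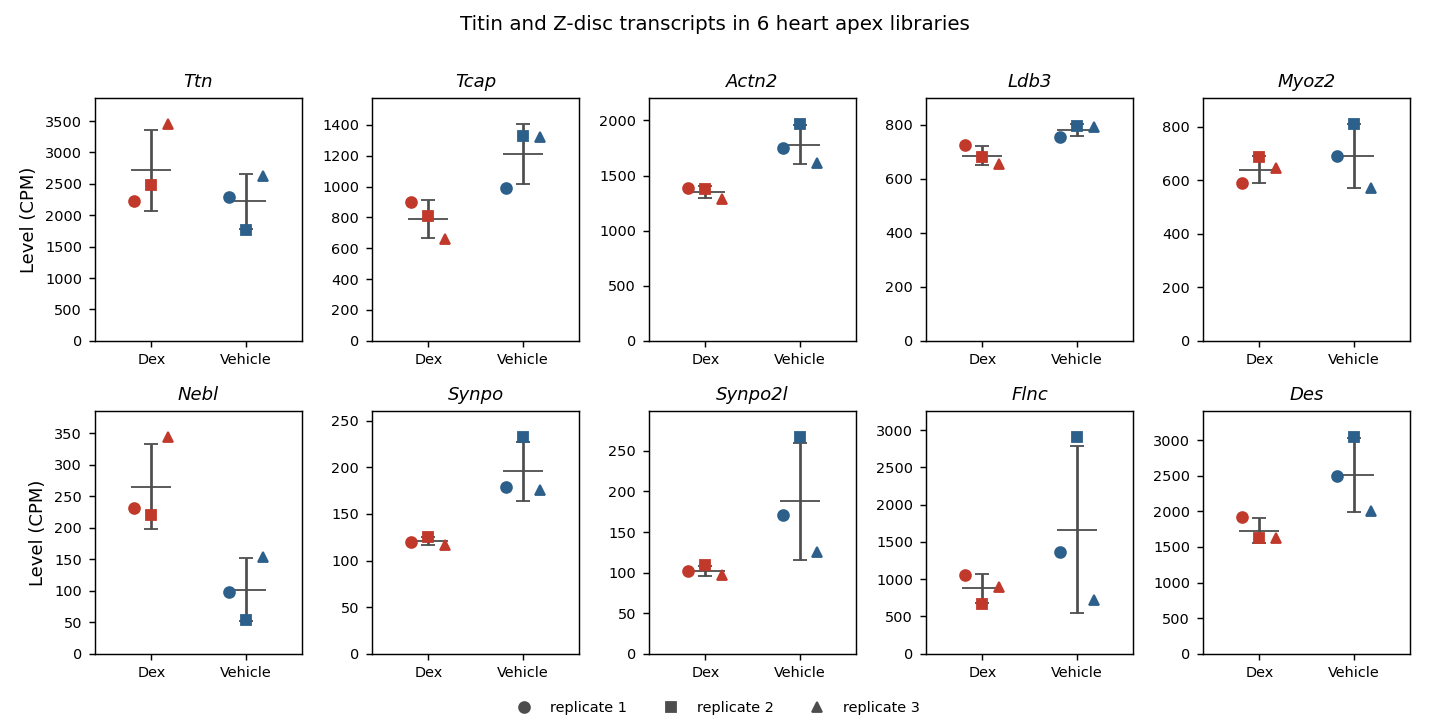
Levels (CPM, linear axes from 0) of the 10 genes in each library, with dexmedetomidine (Dex) in red on the left and vehicle in blue on the right of each panel. Bars give the mean and SD of 3 libraries, and marker shape gives the replicate number. The groups do not overlap for Tcap, Actn2, Ldb3, Synpo, Synpo2l and Des, all lower after dexmedetomidine, or for Nebl, which was higher.

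Levels per kilobase of gene length (RPKM from the TMM-scaled counts) put the members in an order that spanned nearly 2 orders of magnitude. Tcap, with a gene length of only 948 bases, averaged 1056 RPKM over the 6 libraries, and stood above Des (565 RPKM) in 6 of 6 libraries. Des stood above Actn2 (424 RPKM) in 6 of 6. Myoz2 (196 RPKM), Flnc (133 RPKM) and Ldb3 (122 RPKM) came next. The range of Flnc overlapped those of both Myoz2 and Ldb3, which did not overlap each other. Flnc was above Ldb3 in 2 of 6 libraries only. The lowest 4 were Synpo2l (31.4 RPKM), Ttn (21.1 RPKM), Synpo (16.6 RPKM) and Nebl (13.1 RPKM), whose neighbours in the order also overlapped. Ttn has the longest gene length in the table at 116828 bases, so its many counts became a modest level per length. Together the 10 genes took up 1.34%, 1.27% and 1.42% of counts of nuclear genes in dexmedetomidine replicates 1, 2 and 3, and 1.49%, 1.67% and 1.48% in the vehicle replicates. The groups did not overlap in this share.

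Titin and its cap protein at the Z-disc had fitted changes of opposite sign, and the 95% interval of Ttn included 0. Ttn (ENSMUSG00000051747) measured 2224, 2478 and 3450.4 CPM in dexmedetomidine replicates 1, 2 and 3, and 2286, 1760.2 and 2622 CPM in the vehicle replicates. The groups overlapped, with the highest value in dexmedetomidine replicate 3 and the lowest in vehicle replicate 2. The log2 fold change was 0.29 (SE 0.20, 95% interval -0.15 to 0.73, edgeR adjusted p = 0.430), an interval that includes both lower and higher levels. The sign depended on the processing: with each library's trend over GC content and length removed it was -0.11 (SE 0.091). Without dexmedetomidine replicate 3 it was 0.08, and without vehicle replicate 2 it was 0.15. Transcripts of Ttn that differ by splicing cannot be told apart in counts per gene.

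Tcap (ENSMUSG00000007877) codes for telethonin, which joins the ends of a pair of titin molecules in the Z-disc. It measured 899, 812 and 659.6 CPM in dexmedetomidine replicates 1, 2 and 3 and 989.8, 1328 and 1319.5 CPM in the vehicle replicates. Every dexmedetomidine library lay below every vehicle library, but dexmedetomidine replicate 1 and vehicle replicate 1 were close. On the log2 scale Tcap differed by -0.62 (SE 0.16, edgeR adjusted p = 0.109, DESeq2 adjusted p = 0.0115). It stood at -0.10 (SE 0.14) once the GC and length trend was removed. Tcap has the highest GC content of the members at 61.3%, above 97.7% of tested genes with a value.

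The ratio of the 2 counts within a library is free of any scaling factor. In dexmedetomidine replicates 1, 2 and 3 there were 0.404, 0.328 and 0.191 Tcap counts for each Ttn count, and 0.433, 0.754 and 0.503 in the vehicle replicates. On the log2 scale the ratio averaged -1.77 ± 0.56 in dexmedetomidine libraries and -0.87 ± 0.41 in vehicle libraries (SD, n = 3 each), a difference of -0.90 (exact two-sided permutation p = 0.1, the smallest that 3 against 3 libraries can give). The groups did not overlap, yet dexmedetomidine replicate 1 and vehicle replicate 1 were close. With the GC and length trend removed the difference was 0.02 and the groups overlapped. Tcap and Ttn differ widely in both properties, with GC contents of 61.3% and 47.4%.

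**Figure D2:**
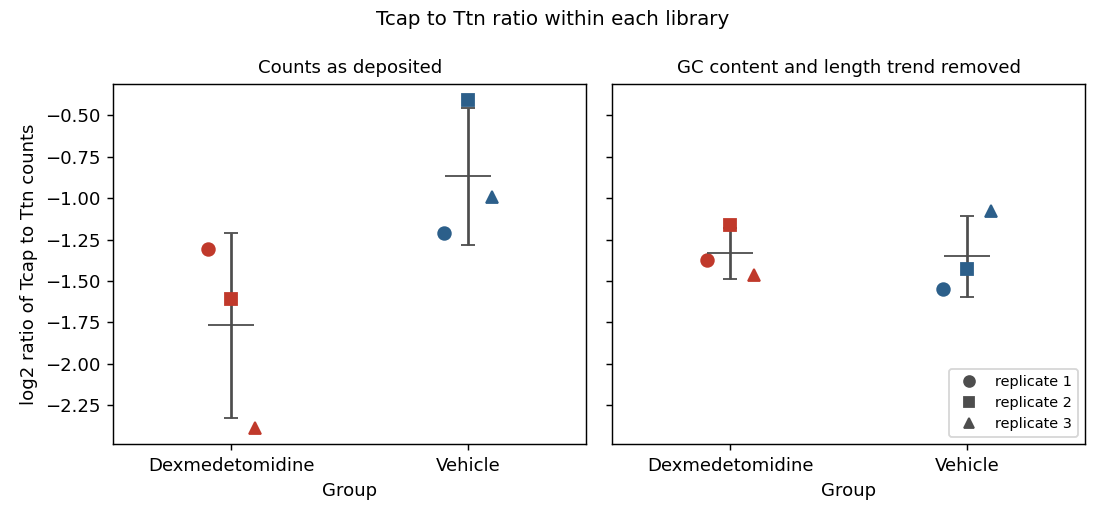
Log2 ratio of Tcap to Ttn counts in each library, from the counts as deposited (left) and after removal of each library's GC content and length trend (right), with dexmedetomidine left of vehicle in each panel. Bars give mean and SD of 3 libraries. The groups are apart by -0.90 on the left and by 0.02 on the right.

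Of the genes at the core of the Z-disc lattice, Actn2 was lower without overlap, Ldb3 was lower by little, and Myoz2 overlapped. Actn2 (ENSMUSG00000052374), the sarcomeric alpha-actinin that cross-links actin and binds titin, measured 1388, 1375 and 1291 CPM in dexmedetomidine replicates 1, 2 and 3 and 1753, 1965.5 and 1615 CPM in the vehicle replicates. The dexmedetomidine libraries lay close together at 1351 ± 53.0 CPM, and the vehicle libraries spread more at 1778 ± 177 CPM (SD, n = 3 each). Actn2 thus had a log2 fold change of -0.40 (SE 0.12, edgeR adjusted p = 0.119, DESeq2 adjusted p = 0.0388), and -0.19 with the GC and length trend removed.

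Ldb3 (ENSMUSG00000021798), which codes for the PDZ-LIM protein ZASP or Cypher that stabilises alpha-actinin at the Z-disc, had 724, 679 and 653 CPM in dexmedetomidine replicates 1, 2 and 3. The vehicle replicates had 756, 794 and 791 CPM. The groups did not overlap but were near each other, and the log2 fold change was -0.19 (SE 0.11, 95% interval -0.43 to 0.06, edgeR adjusted p = 0.354). It was the steadiest of the members, with values of -0.23 to -0.15 over the 15 alternative fits.

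Myoz2 (ENSMUSG00000028116) codes for calsarcin-1, which ties alpha-actinin to the phosphatase calcineurin. It measured 588, 688 and 644 CPM in dexmedetomidine replicates 1, 2 and 3 and 690.5, 809 and 570.4 CPM in the vehicle replicates. The vehicle values enclosed all 3 dexmedetomidine values. The log2 fold change was -0.11 (SE 0.15, 95% interval -0.44 to 0.22, edgeR adjusted p = 0.709), and 0.02 without vehicle replicate 2. With the GC and length trend removed it was -0.73 (SE 0.21, edgeR adjusted p = 0.311). Its GC content of 39.7% is the lowest of the members, above that of 4.94% of tested genes, in a bin where the median log2 fold change was 0.47.

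Nebl was the one member higher after dexmedetomidine with no overlap between groups. Nebl (ENSMUSG00000053702) codes for nebulette, a cardiac relative of nebulin that binds actin at the Z-disc, and from another start for a shorter LIM protein that counts per gene do not separate. It measured 232, 221 and 344 CPM in dexmedetomidine replicates 1, 2 and 3 and 97.4, 53.4 and 154 CPM in the vehicle replicates. All dexmedetomidine libraries were above all vehicle libraries, while the vehicle libraries differed among themselves, with replicate 2 the lowest. In edgeR the log2 fold change was 1.39 (SE 0.36, 2.61-fold, edgeR adjusted p = 0.110, DESeq2 adjusted p = 0.000834). It stayed above 0 in each of the 15 alternative fits, between 0.76 with the GC and length trend removed and 1.82 without vehicle replicate 3, where it passed in edgeR (adjusted p = 0.0109). Nebl and Myoz2 lie side by side in GC content, at 40.1% and 39.7%, and stood at 1.39 and -0.11 in log2 fold change.

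**Figure D3:**
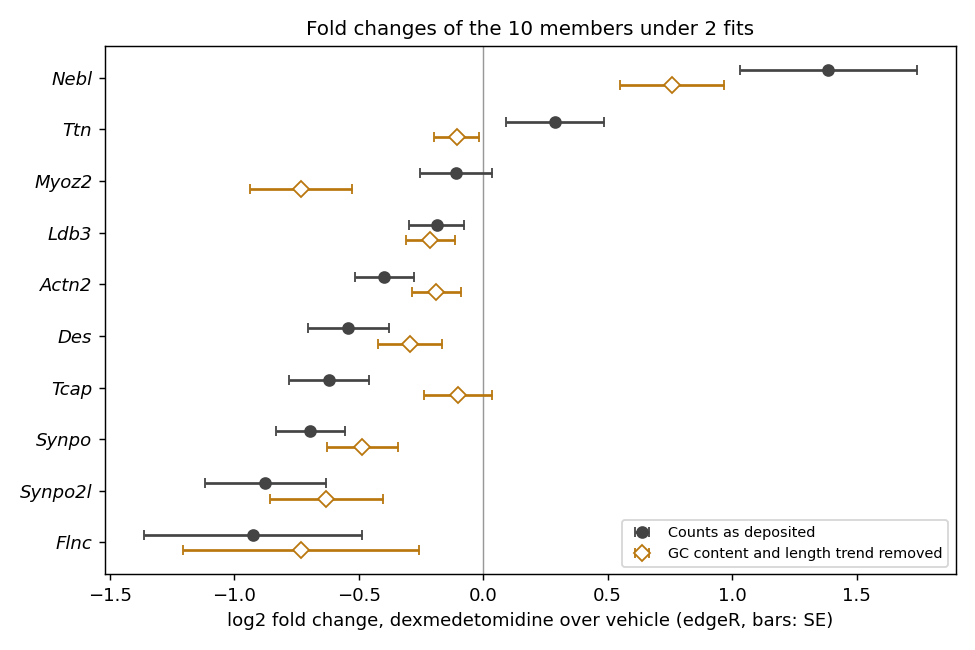
Log2 fold changes of dexmedetomidine over vehicle for the 10 genes, from edgeR on the counts as deposited (filled circles) and with each library's GC content and length trend removed (open diamonds). Bars are SE. Nebl stays to the right of 0 under both, Ttn crosses 0, Tcap moves from -0.62 to -0.10 and Myoz2 from -0.11 to -0.73.

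Fitted levels of the 3 actin-bundling and filamin genes were all lower after dexmedetomidine, with overlap for Flnc. Synpo (ENSMUSG00000043079), which codes for the actin-binding synaptopodin best known from podocytes and dendritic spines, measured 120.4, 125 and 117 CPM in dexmedetomidine replicates 1, 2 and 3. The vehicle replicates stood at 179, 232.5 and 176 CPM. The dexmedetomidine libraries differed by less than 10 CPM and all lay well below the vehicle libraries. Synpo differed by a log2 fold change of -0.69 (SE 0.14, 0.618 times the vehicle level, edgeR adjusted p = 0.101, DESeq2 adjusted p = 0.00101), with the smallest edgeR p of the members. It was -0.49 with the GC and length trend removed, and negative in each of the 15 alternative fits.

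Synpo2l (ENSMUSG00000039376) codes for the synaptopodin relative CHAP, a Z-disc protein of heart and skeletal muscle. It measured 102, 109 and 96.6 CPM in dexmedetomidine replicates 1, 2 and 3, and 171, 267 and 126 CPM in the vehicle replicates. The groups did not overlap, with vehicle replicate 2 far above the others and vehicle replicate 3 nearest to the dexmedetomidine libraries. Its log2 fold change was -0.88 (SE 0.24, edgeR adjusted p = 0.113, DESeq2 adjusted p = 0.00732). It was -0.54 without vehicle replicate 2, and -1.09 without vehicle replicate 3, where edgeR's adjusted p was 0.0122.

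Flnc (ENSMUSG00000068699), filamin C, cross-links actin at Z-discs and intercalated discs. It measured 1060.0, 670.3 and 900.5 CPM in dexmedetomidine replicates 1, 2 and 3 and 1364, 2907 and 724 CPM in the vehicle replicates. The groups overlapped, because vehicle replicate 3 lay among the dexmedetomidine libraries, and vehicle replicate 2 was far above the rest. The log2 fold change was -0.93 (SE 0.44, 95% interval -1.93 to 0.08, edgeR adjusted p = 0.266). Its size turned on single libraries: the value was -0.25 without vehicle replicate 2 and -1.28 without vehicle replicate 3 (edgeR adjusted p = 0.0296).

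Des (ENSMUSG00000026208), desmin, the main intermediate filament of muscle, measured 1927, 1627 and 1630.0 CPM in dexmedetomidine replicates 1, 2 and 3. The vehicle replicates stood at 2503, 3043 and 1999 CPM. The groups did not overlap, but the gap between dexmedetomidine replicate 1 and vehicle replicate 3 was small. Its log2 fold change was -0.54 (SE 0.16, 0.687 times the vehicle level, edgeR adjusted p = 0.118, DESeq2 adjusted p = 0.0311). It was -0.29 with the GC and length trend removed, -0.38 without vehicle replicate 2 and -0.68 without vehicle replicate 3 (edgeR adjusted p = 0.0220).

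**Figure D4:**
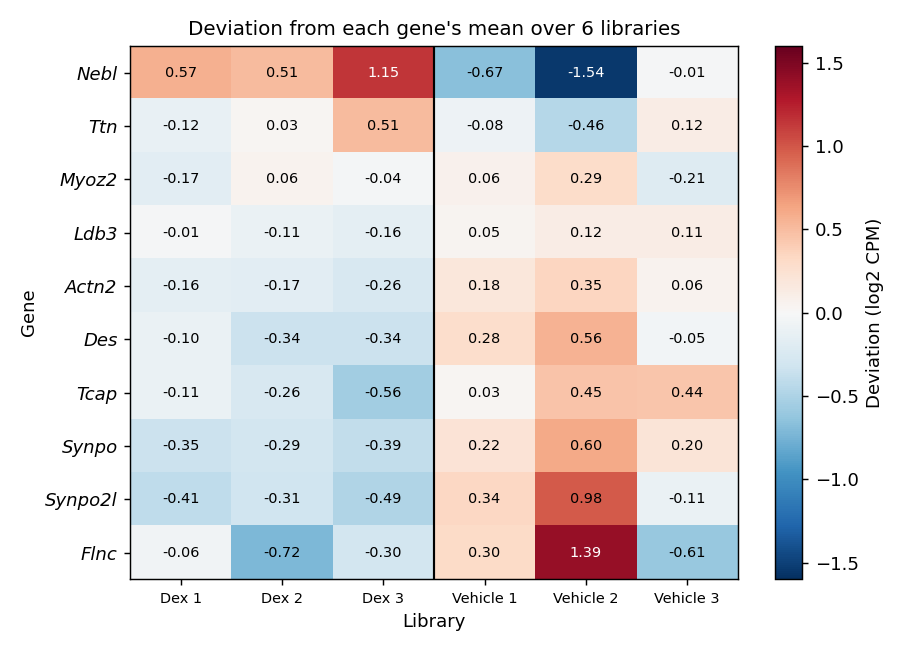
Deviation of each gene's log2 CPM from its mean over the 6 libraries (colour and printed value), with dexmedetomidine libraries left of the line and vehicle libraries right of it. Vehicle replicate 2 holds the lowest value of Nebl and Ttn and the highest value of each of the other 8 genes.

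Vehicle replicate 2 thus stood at an end of the range for all 10 genes. It was the highest library for Tcap, Actn2, Ldb3, Myoz2, Synpo, Synpo2l, Flnc and Des, and the lowest for Ttn and Nebl. Without it the median log2 fold change of the 10 was -0.29, against 0.00380 for all tested genes. No member passed in edgeR, nor did any other gene, as in the fit to all 6 libraries. Nebl was then at 1.08, Synpo at -0.55, Tcap at -0.55, Actn2 at -0.32 and Ldb3 at -0.18. Dexmedetomidine replicate 3, the library with the most Myl7, Sln and Myl4, held the highest Ttn and Nebl. It also held the lowest Tcap, Actn2, Ldb3, Synpo and Synpo2l. The part of its atrial transcripts in these values was not tested. Without dexmedetomidine replicate 3 no member passed in edgeR, and again neither did any other gene. Log2 fold changes were then 0.08 for Ttn, 1.16 for Nebl, -0.50 for Tcap, -0.50 for Des and -0.36 for Actn2. Ldb3 was then at -0.15, Myoz2 at -0.11, Synpo at -0.67, Synpo2l at -0.83 and Flnc at -0.94. The log2 ratio of Tcap to Ttn differed by -0.59 without that library, against -0.90 with it.

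The members were also set beside genes of like GC content. The 5 members in the highest of the 5 GC bins were Tcap, Flnc, Synpo, Synpo2l and Des. Their log2 fold changes were -0.93 to -0.54, each below that bin's median of -0.30. In GC content Tcap lies above 97.7% of tested genes, near the top of that bin. It was at -0.10 with the GC and length trend removed. In that bin, 27.4% of all genes were lower at an unadjusted edgeR p under 0.05, and 30.6% had groups apart in that direction. Of the 2 members in the lowest bin, Nebl stood above its median of 0.47 and Myoz2 below it. In that bin 45.2% of genes were higher at an unadjusted edgeR p under 0.05. Groups were apart with dexmedetomidine above, as for Nebl, in 48.6% of its genes. Actn2, in the bin next to the highest, stood at -0.40 against a median of -0.15. There 11.4% of genes were lower at an unadjusted edgeR p under 0.05. Ldb3, in the middle bin, stood at -0.19 against a median of -0.01. Ttn, in the bin next to the lowest, stood at 0.29 against a median of 0.15. With the trend over GC and length removed, the median of the 10 was -0.25, against 0.00166 over all genes. An unadjusted edgeR p under 0.05 was then reached by Synpo, Synpo2l, Des and Myoz2, all lower (6.36% of all genes), and by Nebl, higher (5.89%), 5 members against 12.2% of genes in either direction. No member passed the adjusted threshold there (0% of all genes).

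**Figure D5:**
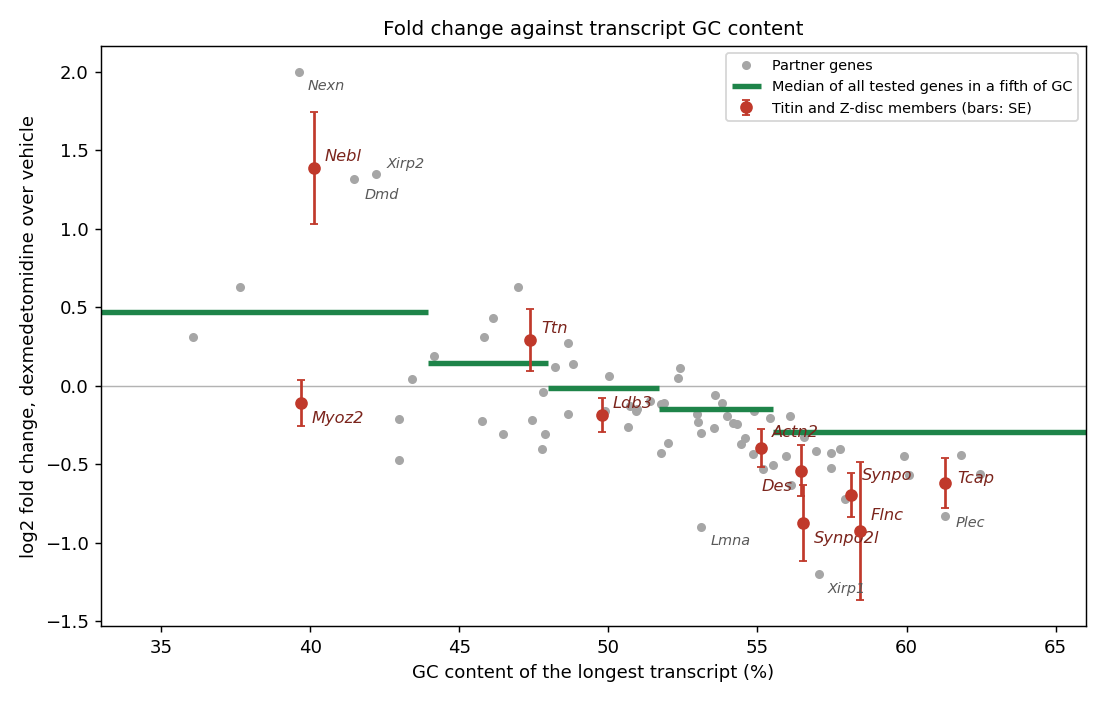
Log2 fold change of dexmedetomidine over vehicle against GC content of the longest transcript, for the 10 genes (red, bars SE) and 67 partner genes (grey). Green lines are medians of all tested genes in 5 equal bins of GC content, between 0.47 at the low end and -0.30 at the high end. Nebl and the partners Nexn, Xirp2, Dmd and Sgcd lie above the line of the lowest bin, and Myoz2 lies below it, as do the partners Capza2, Smpx, Pdlim3 and Pdlim1.

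Partners of these proteins were counted over 4 lists holding 71 genes, of which 67 were tested. The 4 not tested were Actn3, Myoz1 and Myoz3, which did not pass the filter on low counts, and Nrap, which was listed at 0 in each library. No partner passed in edgeR, 51 of 67 were lower and 16 higher, and the median log2 fold change was -0.22, or -0.12 with the GC and length trend removed and -0.10 without vehicle replicate 2. At an unadjusted edgeR p under 0.05, 16 of the 67 partners were lower, where 9.03% of all genes were, and 7 were higher, where 12.5% of all genes were. DESeq2 called 9 lower (2.66% of all genes) and 3 higher (5.97%) at its adjusted threshold, and limma-voom called 11 lower (5.31%) and 4 higher (8.98%).

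Of the 21 tested genes listed as titin-bound or signalling, 17 had lower fitted transcript levels. The median log2 fold change of the list was -0.31, or -0.14 with the GC and length trend removed and -0.12 without vehicle replicate 2. Palld, the actin scaffold palladin, averaged 109 ± 2.45 CPM in dexmedetomidine libraries and 140.0 ± 8.69 CPM in vehicle libraries (SD, n = 3 each), a log2 fold change of -0.37 (SE 0.11, edgeR adjusted p = 0.120, DESeq2 adjusted p = 0.0454). Myom2, an M-band cross-linker of titin and myosin, stood at -0.43. Trim54, a muscle ubiquitin ligase, stood at -0.44, and at -0.02 with the GC and length trend removed. Groups did not overlap for any of these 3, which were named for their small p-values. Over the whole list 9 of 21 genes were apart and lower (12.0% of all genes) and 0 apart and higher (15.6%).

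Transcripts of Z-disc anchors and of proteins with LIM or PDZ domains went both ways, with 16 of 24 lower and 8 higher. The median was -0.17, or -0.10 with the GC and length trend removed. Nexn, nexilin, an actin-binding protein of the Z-disc and the junctional membrane, measured 355, 215 and 461 CPM in dexmedetomidine replicates 1, 2 and 3, and 76.3, 55.2 and 127 CPM in the vehicle replicates. Its groups did not overlap, and its log2 fold change was 2.00 (SE 0.36, edgeR adjusted p = 0.101, and 1.45 with the GC and length trend removed). Xirp2, an actin-binding Xin-repeat gene, measured 603, 252 and 745 CPM after dexmedetomidine and 251, 188 and 189 CPM after vehicle, so 1 dexmedetomidine library lay just above the highest vehicle library. Its log2 fold change was 1.35 (SE 0.35, edgeR adjusted p = 0.111). The small heat shock gene Hspb7 stood at -0.42 and Pdlim7, a PDZ-LIM relative of Ldb3, at -0.72, and of these 2 Pdlim7 had overlapping groups. Xirp2, Hspb7 and Pdlim7 stood at 0.82, -0.13 and -0.46 with the GC and length trend removed.

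Among the 7 tested paralogs of the members, Synpo2, the relative of Synpo and Synpo2l, was lower without overlap, at 111 ± 7.80 CPM in dexmedetomidine libraries and 147 ± 8.01 CPM in vehicle libraries (SD, n = 3 each; log2 fold change -0.40, SE 0.12, edgeR adjusted p = 0.114). The non-muscle alpha-actinins Actn1 and Actn4 and filamin A, Flna, stood at -0.23, -0.21 and -0.19, with overlapping groups. In the desmin network and costamere list 12 of 15 genes were lower (median -0.24, or -0.14 with the GC and length trend removed). Plec, the linker plectin, stood at -0.83 (SE 0.23), Lmna, the nuclear lamins A and C, at -0.90 (SE 0.28) and Tln1, talin, at -0.42 (SE 0.12), with adjusted edgeR p-values of 0.112, 0.132 and 0.112, and with overlapping groups for Lmna. Dmd, dystrophin, was higher, at 1.32 (SE 0.33, edgeR adjusted p = 0.109), and stood at 0.69 with the GC and length trend removed.

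Cell type markers show what the apex held. In bulk tissue, fewer cells of a type and less RNA per cell cannot be told apart. Summed over 11 cardiomyocyte markers outside the 10 genes, levels were 55037 to 58408 CPM after dexmedetomidine and 60286 to 72169 CPM after vehicle, with 6 of 11 lower and 1 higher without overlap, where 12.0% of all genes were lower and 15.6% higher in that way. The part of this difference in the lower Z-disc transcripts was not tested. Smooth muscle, which also expresses desmin, summed to 315 to 406 CPM after dexmedetomidine and 317 to 428 CPM after vehicle, and none of its 8 markers had groups apart. Pericyte markers summed to 1460.3 to 1786 CPM after dexmedetomidine and 1091 to 1287 CPM after vehicle, with 2 of 6 higher and 2 lower without overlap. Fibroblast markers summed to 1051 to 1248 CPM after dexmedetomidine and 858 to 958 CPM after vehicle, with 1 of 6 higher. The skeletal muscle markers Myh4, Tnnc2 and Myog were at 0 in each library, and the 7 on that list summed to at most 1.64 CPM after dexmedetomidine and 1.53 CPM after vehicle. Summed atrial markers stood at 7.52 to 59.9 CPM after dexmedetomidine and 15.3 to 31.5 CPM after vehicle, with Bmp10 at 0 and the top value in dexmedetomidine replicate 3. Endothelial markers summed to 1032 to 1095 CPM after dexmedetomidine and 1057 to 1176 CPM after vehicle. Of these 7 markers, 1 was higher and 1 lower without overlap. Macrophage markers summed to 111 to 132 CPM after dexmedetomidine and 126 to 149 CPM after vehicle, with 1 of 5 lower without overlap. Neutrophil markers spread more widely, over 37.9 to 158 CPM after dexmedetomidine and 52.0 to 102 CPM after vehicle.

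Profiles over the 6 libraries were compared by the root mean square distance between log2 CPM values centred on each gene's mean, over genes with a mean of at least 10 CPM. Des lay nearest to Mrps36, a small mitochondrial protein gene (0.042), Myo1c, an unconventional myosin (0.045), and Zyx, the focal adhesion protein zyxin (0.046). Tcap lay nearest to Tnrc18 (0.073), the aldehyde dehydrogenase gene Aldh2 (0.080) and the malonyl-CoA decarboxylase gene Mlycd (0.085). Ttn lay nearest to the nuclear pore gene Nup160 (0.080), the mannosidase gene Man2a1 (0.091) and the cleavage factor gene Cstf2 (0.092). These neighbours share the libraries and differ in how near their GC content is. It was 54.8% to 61.2% for those of Tcap (61.3%) and 42.1% to 47.2% for those of Ttn (47.4%). For Des (56.5%), Myo1c and Zyx stood at 56.2% and 56.6%, but Mrps36, the nearest of all, at 47.2%.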

How the data were processed

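The authors deposited 1 table of raw read counts per Ensembl gene for the 6 libraries, and a gene length. The tools and build named in the submitters' processing notes are HTSeq, Trim Galore and mm9. Aligner, versions, annotation and strand were not given in the sources used here. Per the labels, polyadenylated RNA was selected from 1 µg and libraries were made with an NEBNext Ultra kit. In GENCODE M21, Ttn and Des overlap antisense genes, with at most 0 and 19 counts in the table, and the other 8 overlap none. Symbols matched 32897 genes. The 5 summary rows stayed out. Alignments at several places were 31.2%, 39.5% and 39.4% of reads in dexmedetomidine replicates 1, 2 and 3. In the vehicle replicates they were 31.4%, 28.6% and 28.0%. Ambiguous reads stood at 1.83% to 2.37% and reads in no gene at 2.33% to 3.63%.

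Genes were tested with edgeR 4.0.16 (robust quasi-likelihood, filterByExpr, TMM) in R 4.3.3, with Benjamini-Hochberg adjustment over 14738 genes. DESeq2 1.42.0 and limma 3.58.1 (voom with quality weights) were run beside it. GC content came from the longest GENCODE M21 transcript, and each library's trend was removed as an offset by lowess (span 0.3). Some of the fits were also run on counts simulated with edgeR's own dispersions. Those counts lacked differences in library quality, so they cannot decide between the tools on these data. Members and lists were chosen with earlier results of these data known. Named genes are the 10 members, up to 4 per partner list by smallest p, and 3 nearest profiles for Ttn, Tcap and Des. One gene the rule names is not reported here. Libraries differed by more than sampling noise (chi-square per degree of freedom of at least 31.0). Gene counts were 42.7 to 56.6 M per library.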

Additional observations from a re-analysis of the deposited data

How the results depend on the processing

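Members past the threshold numbered 0 in the main edgeR fit, 2 with no filter on low counts, 6 in DESeq2 and 6 in limma-voom, and 0 to 6 with 1 library left out. Over the whole table the counts were 0, 406, 1272 and 2107, and 0 to 1251 with 1 library left out. Over the partner lists they were 0, 1, 12 and 15, and 0 to 11. Counts were 0 throughout with DESeq2 size factors, without mitochondrial transcripts in the library size, with a mean CPM of at least 5 and with the GC and length offset. Of the fits with 1 library left out, that without vehicle replicate 3 gave the highest count in each. The cause was not tested. Correlations between deviations of same-numbered libraries were -0.055, 0.036 and 0.15, and those of other pairs were -0.19 to 0.15. With 3 libraries per group these values cannot decide whether replicate numbers pair the libraries. With the replicate block 3 members, 636 genes and 3 partners passed, and with the block and the GC and length offset together 1, 84 and 1. In the 150 alternative values of single members, 3 changed sign: Ttn was at -0.11 with the GC and length offset, with or without the block (-0.107 and -0.107 on the log2 scale), and Myoz2 at 0.0208 without vehicle replicate 2, in a range of -0.23 to 0.0208 with 1 library left out. The log2 ratio of Tcap to Ttn was -0.90 in the main analysis, per kilobase and with the block (exact sign-flip p = 0.25), -1.13 to -0.59 with 1 library left out, and 0.0172 with the GC and length trend removed.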
